A study of Mus musculus with 5 samples.

Results

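A set of 10 genes of the lysosome and phagolysosome were followed in mice that carried a GL261 glioma in the right brain hemisphere and received vehicle or UMBO, the opening of the blood-brain barrier by low-intensity pulsed ultrasound and intravenous microbubbles. The set holds 8 cathepsins (Ctsb, Ctsc, Ctsd, Ctsh, Ctsk, Ctsl, Ctss and Ctsz), the cathepsin inhibitor Cst3 and the phagocyte marker Cd68. They were listed by name, with earlier results of these data known, and all 10 were found among the 55573 genes listed in the count tables. All 10 also had enough counts to be among the 23592 genes tested, with no fewer than 251 reads for any of them in any library.

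All mice were C57BL/6 females that had received GL261 glioma cells, transduced with luciferase and mKate2, in the right caudate-putamen at 7 to 8 weeks of age. The 3 vehicle mice received inVivoPure pH 6.5 Dilution Buffer, and the labels do not say whether they were also sonicated or given microbubbles, so the comparison is of the whole UMBO treatment with buffer. The 3 vehicle and 2 UMBO mice were treated on days 21 and 24, and each hemisphere was taken 24 h after the last session. Each library is bulk RNA of a hemisphere with its tumor, in which fewer cells of a type and less RNA per cell cannot be told apart. The total count lay between 59736771 and 86164159 reads per library, and no pair of libraries was as alike as sampling noise allows. The largest component of variation, with 78.7% of the variance, set UMBO replicate 2 apart from the other 4 libraries and did not separate the groups. All 7 neuron markers were detected in every library, so the libraries hold brain tissue. UMBO replicate 2 also had the lowest share of mitochondrial reads, 3.36% against 5.29% to 6.61% in the others. Each of the 10 genes is therefore given library by library, and the fold changes were recomputed with each library left out.

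Cathepsins are the proteases of the lysosome, the acid compartment in which cells digest what they take up and what they recycle. Most are cysteine proteases of the papain family, which share a catalytic cysteine, while Ctsd is an aspartic protease. In the brain they are most abundant in microglia and macrophages, where they digest phagocytosed material and trim antigens for presentation, and Cst3, a secreted cystatin, blocks the cysteine members.

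The 7 cysteine cathepsins are recognized by the short coding stretch around the catalytic cysteine, shown here because it is what joins them as a family. Each line gives 30 coding bases of the GENCODE M21 transcript on build GRCm38, with the cysteine codon in capitals.
Ctsb: tcctgcggctctTGTtgggcatttggggca
Ctsl: cagtgcgggtctTGTtgggcgtttagcgca
Ctsk: cagtgtggttccTGTtgggctttcagctct
Ctss: tcttgtggtgccTGCtgggctttcagtgct
Ctsh: gcctgtggcagcTGCtggactttctctacc
Ctsc: tcttgtggaagcTGCtactcatttgcctct
Ctsz: tactgtggttccTGCtgggcccacggcagc
The codon is TGT in Ctsb, Ctsl and Ctsk and TGC in the other 4. Over the 30 bases the pairs shared between 13 and 23 bases, with 23 for Ctsb and Ctsl, for Ctsk and Ctsl, and for Ctsk and Ctss. The stretch lies within 1 exon in 6 of the genes, for example in exon 5 of 8 in Ctsl (chr13:64367060-64367089, minus strand) and in Ctss (chr3:95545336-95545365, plus strand), and across exons 4 and 5 in Ctsb (chr14:63135705-63136418, plus strand).

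The levels in the vehicle hemispheres show which of these transcripts the tissue held most of. Levels were compared between genes in CPM per kb, the read count scaled to library size and by TMM (CPM) and divided by the transcript's length in kilobases. Cst3 was the most abundant at 863 ± 188 CPM per kb (SD, n = 3), a level whose range did not overlap that of any cathepsin. Ctss followed at 165 ± 104, Ctsb at 125 ± 20.1, Ctsd at 81.3 ± 28.6, Ctsl at 53.7 ± 12.01 and Ctsz at 44.4 ± 26.6 CPM per kb. In this group of 5 no neighbors in the order differed beyond their spread. Ctsh at 15.9 ± 8.45, Cd68 at 13.8 ± 6.00 and Ctsc at 11.6 ± 6.60 CPM per kb formed a lower group with overlapping ranges, and Ctsk was the lowest at 2.35 ± 0.107 CPM per kb. The gaps below Cst3, between Ctsz and Ctsh, and between Ctsc and Ctsk were the only places in the order where the ranges of neighbors did not overlap. With the length of all annotated exons in place of that of 1 transcript, Ctsl and Ctsz changed places, as did Ctsh and Cd68. The gaps moved too. The vehicle range of Ctsl (13.7 to 20.5 CPM per kb) then overlapped that of Cd68 (9.53 to 20.3) and no longer that of Ctsz (27.2 to 75.0). Cd68 no longer overlapped Ctsh (3.36 to 9.15). The grouping above therefore holds for the transcript length only.

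With UMBO the mean level of every one of the 10 genes was above that with vehicle, from 1.30-fold for Ctsk to 3.32-fold for Cd68. Ctsd, Cd68, Ctsl, Ctsz and Ctsh had an unadjusted p under 0.05 by edgeR's quasi-likelihood test, 5 of 10 genes, while 5.3% of all genes tested reached it in that direction. None of the 10 passed the threshold of 0.05 after Benjamini-Hochberg adjustment, where edgeR also called 0% of all genes, and the adjusted p was 0.497 for 9 of them and 0.502 for Ctsk. The DESeq2 Wald test likewise called none of them after adjustment, where it called 0.114% of all genes higher, and 7 of them without adjustment, where it called 8.11%. Their median log2 fold change was 1.18, beside 0.01 for all genes tested, and 50.9% of all genes had a log2 fold change above 0. Both UMBO libraries lay above all 3 vehicle libraries for 6 of the 10 genes, against 11.5% of all genes tested. These 6 were Ctsd, Ctsl, Ctsb, Ctsk, Cst3 and Cd68. In the other 4, Ctsc, Ctsh, Ctss and Ctsz, UMBO replicate 1 lay below vehicle replicate 2.

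**Figure D1:**
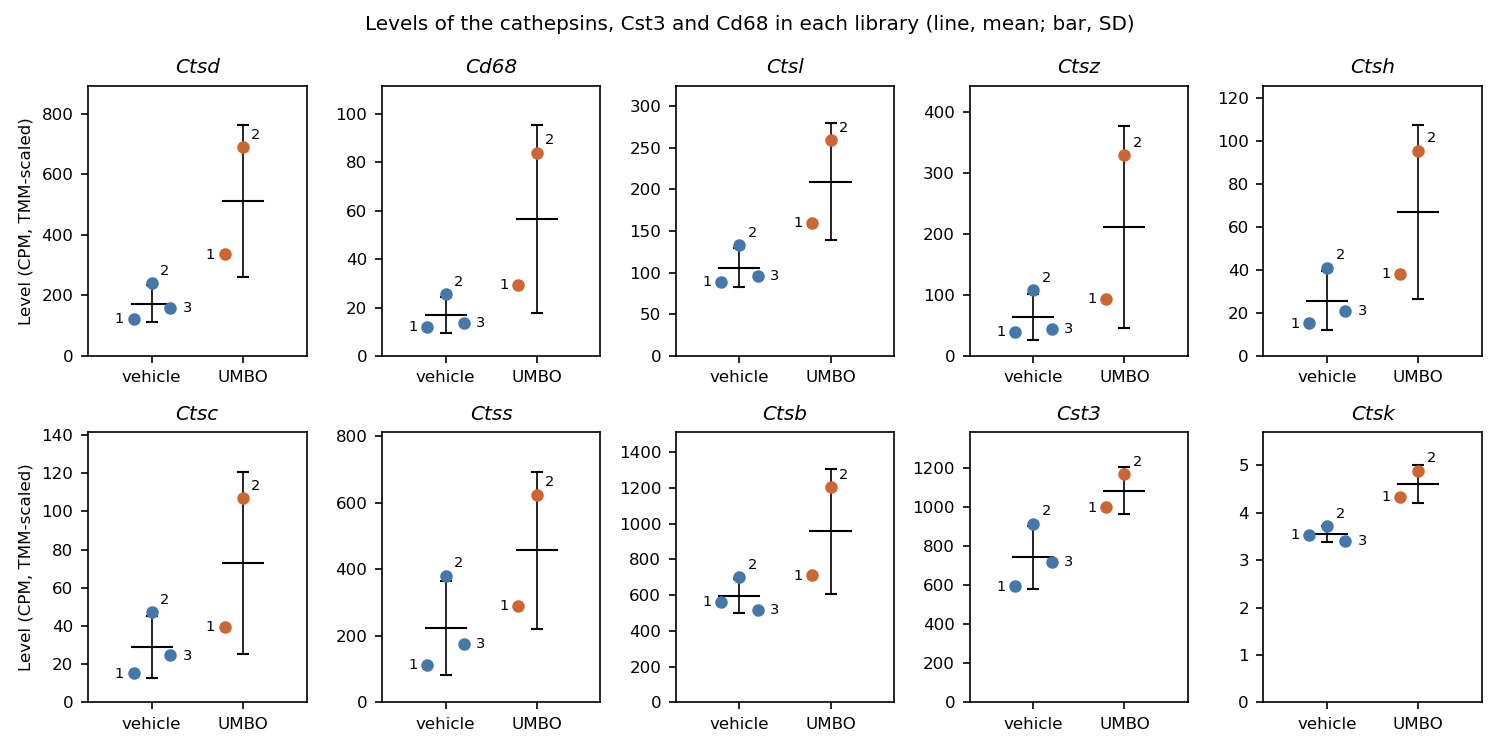
Level of each gene in CPM (TMM-scaled, linear axes from 0) in the 3 vehicle and 2 UMBO libraries, with the replicate number beside each point, the group mean as a line and the SD as a bar. UMBO replicate 2 is the highest library and vehicle replicate 2 the highest vehicle library in all 10 panels, and the groups do not overlap for Ctsd, Cd68, Ctsl, Ctsb, Cst3 and Ctsk.

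All 10 genes had the same highest library and the same highest vehicle library. UMBO replicate 2 had the highest level in 10 of 10 and vehicle replicate 2 the highest of the vehicle group in 10 of 10. Of all 23592 genes tested, 9529 were highest in UMBO replicate 2, and in 9266 vehicle replicate 2 was the highest vehicle library. The count of genes with an unadjusted p under 0.05 went from 5 to 1, Ctsd, when any one of vehicle replicate 1, vehicle replicate 3 or UMBO replicate 2 was left out, while 0.838%, 0.945% and 1.15% of all genes were then called higher. It was 7 without vehicle replicate 2 (9.36% of all genes) and 8 without UMBO replicate 1 (21.4% of all genes). Without UMBO replicate 1 edgeR also called 7 of the 10 after adjustment (Ctsb, Ctsc, Ctsd, Ctsh, Ctsl, Ctsz and Cd68), where 10.1% of all genes were called higher. That fit compares a single UMBO library with the 3 vehicle libraries and takes its spread from the vehicle group. Over the 10 genes the median log2 fold change became 0.50 without UMBO replicate 2 and 1.80 without vehicle replicate 2, and the fold change stayed above 0 for all 10 genes whichever library was left out.

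**Figure D2:**
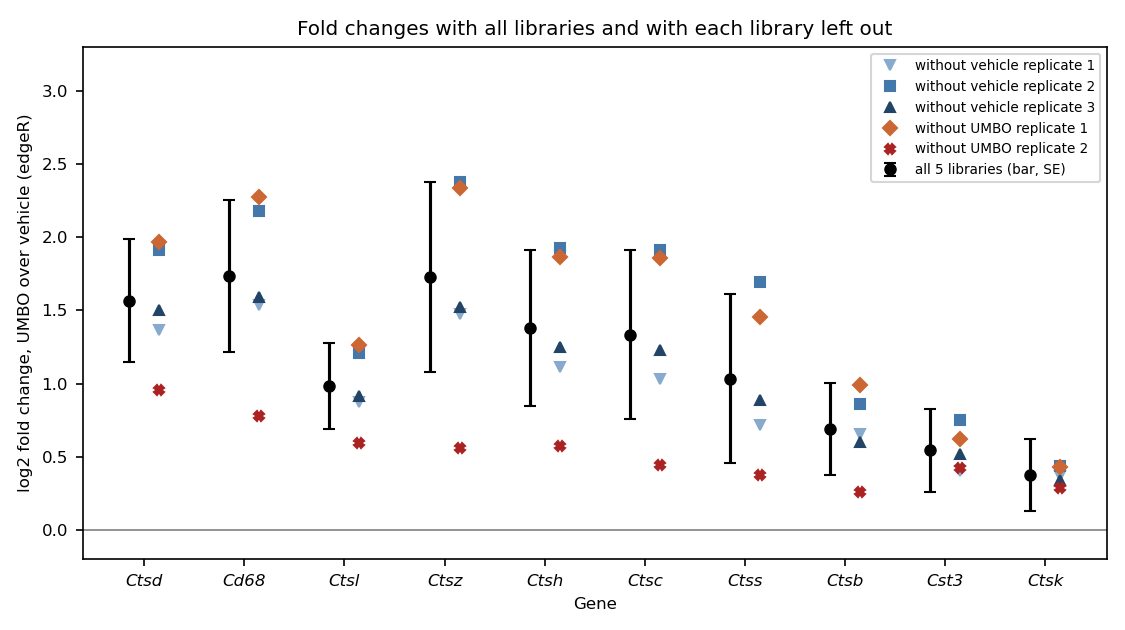
The log2 fold change of each gene, UMBO over vehicle, from edgeR with all 5 libraries (black, bar SE) and with each library left out (colored symbols). All points lie above 0, the lowest point of each gene except Cst3 is the one without UMBO replicate 2, and Ctsd keeps the largest value without that library, 0.95.

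Ctsd (chr7:142375911-142388038, minus strand), the aspartic protease that cleaves proteins at acid pH and is needed for lysosomal protein turnover, had the smallest p of the set. Its level was 121, 239.9 and 157 CPM in vehicle replicates 1 to 3, and 335 and 689 CPM in UMBO replicates 1 and 2. The groups did not overlap, and the lower UMBO library stood 1.40-fold above the highest vehicle library, the widest gap among the 10 genes. The means were 173 ± 60.8 CPM (SD, n = 3) and 512 ± 251 CPM (SD, n = 2), a log2 fold change of 1.57 (SE 0.419, edgeR unadjusted p = 0.00968, adjusted p = 0.497). Leaving out single libraries gave log2 fold changes between 0.95 and 1.97. An unnamed gene model, Gm49369, shares 808 exonic bases with Ctsd on the same strand, so some reads of either could have been assigned to the other or dropped.

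Among the cysteine endopeptidases, which cut within protein chains, Ctsl came next. Ctsl (chr13:64359337-64370890, minus strand), a broad endopeptidase of most cell types, was at 88.9, 133 and 95.9 CPM with vehicle and at 159 and 259 CPM with UMBO. Both UMBO libraries were above every vehicle library, the lower by 1.20-fold. The log2 fold change was 0.98 (SE 0.295, edgeR unadjusted p = 0.0160, adjusted p = 0.497) and lay between 0.59 and 1.26 with single libraries left out. Gene models overlap Ctsl on both strands, Gm47123 by 1742 exonic bases on the other strand and Gm49230 by 395 on the same strand. The strand setting of the counting is not given in the sources used here, so reads of Ctsl and of its partner on the other strand may not have been told apart.

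Ctss and Ctsk are neighbors on chromosome 3, 17423 bases apart and on the same strand, yet their levels were unlike. Ctss (chr3:95526786-95556403), an endopeptidase of antigen-presenting cells that cleaves the invariant chain of MHC class II, was at 113, 381 and 177 CPM with vehicle and at 289.7 and 625 CPM with UMBO. The groups overlapped, since UMBO replicate 1 was at 0.76 of the level of vehicle replicate 2, and the vehicle libraries differed among themselves by up to 3.39-fold, the widest vehicle range of the 10 genes. The log2 fold change of Ctss was 1.03 (SE 0.579, edgeR unadjusted p = 0.125, adjusted p = 0.497). Ctsk (chr3:95499256-95509362), known as the collagen-degrading protease of osteoclasts, was at 3.53, 3.72 and 3.40 CPM with vehicle and at 4.33 and 4.89 CPM with UMBO. These were the narrowest ranges of the set, 1.09-fold among the vehicle libraries and 1.13-fold between the UMBO libraries, and the groups did not overlap. The difference was also the smallest, a log2 fold change of 0.38 (SE 0.249, edgeR unadjusted p = 0.182, adjusted p = 0.502).

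Ctsb (chr14:63122462-63145923, plus strand) acts both as an endopeptidase and as a peptidyl-dipeptidase, which removes dipeptides from the carboxyl end. Its level was 563, 701 and 519 CPM with vehicle and 711 and 1206 CPM with UMBO. The groups did not overlap, but UMBO replicate 1 exceeded vehicle replicate 2 by only 1.01-fold. The log2 fold change was 0.69 (SE 0.317, edgeR unadjusted p = 0.0731, adjusted p = 0.497) and 0.26 without UMBO replicate 2. Ctsb shares 774 exonic bases with Fdft1 on the other strand.

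The 3 exopeptidases, which remove residues from the ends of proteins, varied by 2.72-fold to 3.11-fold among the vehicle libraries. Ctsc (chr7:88278085-88310888, plus strand), the dipeptidyl peptidase that activates the serine proteases of immune cell granules, was at 15.2, 47.2 and 24.6 CPM with vehicle and at 39.4 and 107 CPM with UMBO. Ctsh (chr9:90054152-90076089, plus strand), an aminopeptidase, was at 15.1, 41.2 and 21.0 CPM with vehicle and at 38.3 and 95.6 CPM with UMBO. Ctsz (chr2:174427493-174439039, minus strand), a carboxypeptidase, was at 39.2, 108 and 44.6 CPM with vehicle and at 94.1 and 329 CPM with UMBO. All 3 had the same shape, with vehicle replicate 2 above UMBO replicate 1 and UMBO replicate 2 far above both, so the groups overlapped. Ctsz had the largest log2 fold change of the cathepsins at 1.73 (SE 0.648, edgeR unadjusted p = 0.0374, adjusted p = 0.497), and it was 0.56 without UMBO replicate 2. Ctsh had 1.38 (SE 0.534, unadjusted p = 0.0417) and Ctsc 1.33 (SE 0.581, unadjusted p = 0.0613) in the same edgeR fit, and these values were 0.57 and 0.44 without UMBO replicate 2. The 10 exonic bases that Ctsz shares with Nelfcd on the other strand are few beside its transcript.

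Cst3 (chr2:148871722-148875692, minus strand), cystatin C, is secreted by astrocytes and other brain cells as well as by phagocytes. It was at 593, 914 and 719 CPM with vehicle and at 997 and 1166 CPM with UMBO. The groups did not overlap, and the lower UMBO library was 1.09-fold above the highest vehicle library. The log2 fold change was 0.54 (SE 0.285, edgeR unadjusted p = 0.105, adjusted p = 0.497) and lay between 0.41 and 0.75 with single libraries left out. The ratio of Cst3 to the summed cysteine cathepsins, both in CPM per kb, was 2.36, 1.72 and 2.43 with vehicle and 2.10 and 1.15 with UMBO. The ratio was lowest in UMBO replicate 2, and the groups overlapped because UMBO replicate 1 lay within the vehicle range.

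Cd68 (chr11:69664213-69666153, minus strand), a membrane glycoprotein of late endosomes and lysosomes that is used to stain phagocytes, was at 11.98, 25.5 and 13.6 CPM with vehicle and at 29.2 and 83.9 CPM with UMBO. Both UMBO libraries were above every vehicle library, the lower by 1.14-fold. The means were 17.0 ± 7.38 CPM (SD, n = 3) and 56.6 ± 38.7 CPM (SD, n = 2). Cd68 had the largest log2 fold change of the set, 1.73 (SE 0.520, edgeR unadjusted p = 0.0158, adjusted p = 0.497), and it was 0.78 without UMBO replicate 2. The UMBO libraries themselves differed by 2.88-fold, more than the lower of them differed from vehicle replicate 2.

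The make-up of the cathepsin pool was described apart from its size, as each gene's share of the summed CPM per kb of the 8 cathepsins in the same library. The sum was 349, 731 and 419 CPM per kb with vehicle and 710 and 1504 CPM per kb with UMBO, so the groups overlapped in size. Ctsd made up 16.4%, 15.4% and 17.7% of it with vehicle and 22.2% and 21.5% with UMBO. This was the only share of the 8 whose groups did not overlap, an item chosen after the values were seen. Over all genes tested the levels, not shares, were without overlap in 11.5% with UMBO above and in 11.4% with UMBO below. Shares were not computed for other genes, so 1 share of 8 cannot be said to exceed a background. Here UMBO replicate 1 was as far from the vehicle libraries as UMBO replicate 2, unlike in the levels. The Ctsb share went the other way in rank, with 34.0%, 20.2% and 26.1% with vehicle and 21.1% and 16.9% with UMBO, but the groups overlapped. Ctss held between 23.8% and 38.5% with vehicle and 30.1% and 30.6% with UMBO, within the vehicle range. With the length of all annotated exons the Ctsd share was 18.7%, 16.6% and 19.7% with vehicle and 24.5% and 23.2% with UMBO, again without overlap.

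**Figure D3:**
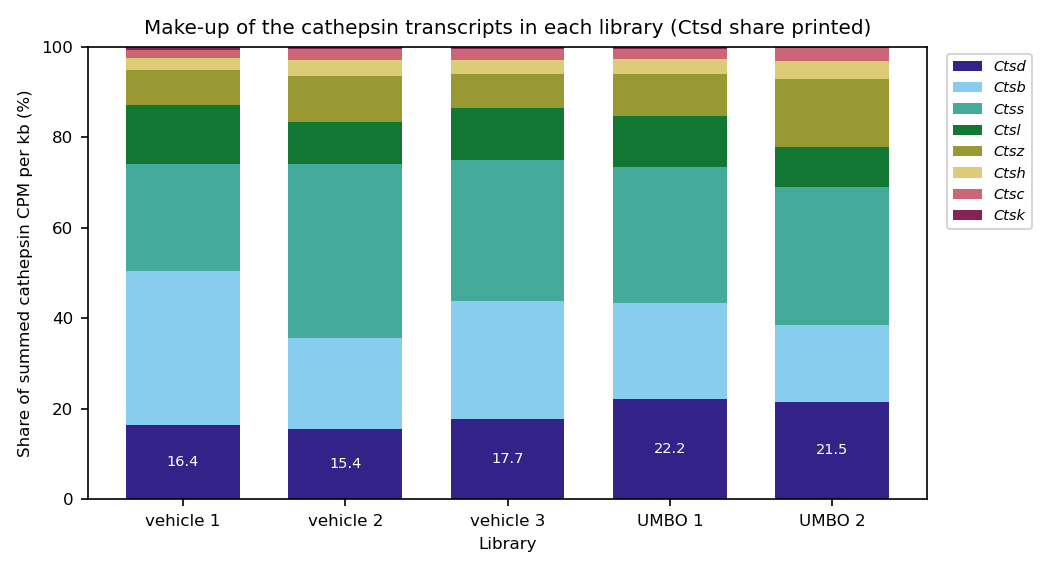
Share (%) of each cathepsin in the summed CPM per kb of the 8 cathepsins, stacked for each of the 5 libraries, with the share of Ctsd printed. The Ctsd block spans 15.4% to 17.7% with vehicle and is 21.5% and 22.2% with UMBO.

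The promoter sequences were searched for letters known to be read by regulators of these genes. TFEB, the factor that turns on lysosomal genes, binds motifs built on CACGTG, and PU.1, a factor of myeloid cells, binds GAGGAAGT. RefSeq windows on GRCm38.p6, 250 bases before to 50 after a gene's start, were at hand for 8 of the 10 genes, not for Ctsb and Ctsh. Searched on both strands, CACGTG was found in the windows of Ctsd and Ctsl, and in 7.15% of all 32851 windows. The longer TCACGTGA, which contains CACGTG, was found in that of Ctsd and in 0.974% of all windows. GAGGAAGT was found in the windows of Ctsc and Ctss and in 3.2% of all windows. The 250 bases before the start are shown for Ctsd (chr7:142387828-142388077, minus strand), the gene with the smallest p and with 2 matches to CACGTG, and for Ctsc (chr7:88277835-88278084, plus strand), which holds GAGGAAGT on the other strand, with the matches in capitals.
Ctsd: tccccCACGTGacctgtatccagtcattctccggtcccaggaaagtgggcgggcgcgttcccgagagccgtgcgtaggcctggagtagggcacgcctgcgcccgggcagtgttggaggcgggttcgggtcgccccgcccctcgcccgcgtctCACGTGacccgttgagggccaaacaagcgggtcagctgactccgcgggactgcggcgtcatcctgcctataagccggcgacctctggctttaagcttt
Ctsc: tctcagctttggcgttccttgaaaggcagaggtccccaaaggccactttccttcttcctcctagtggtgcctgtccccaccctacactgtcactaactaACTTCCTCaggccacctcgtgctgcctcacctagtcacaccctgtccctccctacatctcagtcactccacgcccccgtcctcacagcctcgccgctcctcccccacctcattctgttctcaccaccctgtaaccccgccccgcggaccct
The matches begin 245 and 98 bases before the RefSeq start in Ctsd and 151 bases before it in Ctsc. In the GENCODE positions given above, Ctsd starts at chr7:142388038, within the window shown. The match 98 bases before the RefSeq start thus lies inside the gene as GENCODE places it. A match describes the letters in these windows and was not tested against any binding data.

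The rest of the lysosomal and phagosomal pathway was described from 7 lists of 105 other genes, of which 101 were tested. At an unadjusted p under 0.05 by edgeR 20 of the 101 were higher with UMBO and none lower, where 5.3% and 2.06% of all genes were, and none passed after adjustment by edgeR or DESeq2. The 5.3% is also the share of all genes beside the counts of the single lists below. Without vehicle replicate 1 (0.838% of all genes higher) or UMBO replicate 2 (1.15%) the 20 became 0. Without vehicle replicate 3 (0.945%) they became 1. The 101 genes had a median log2 fold change of 0.26, or 0.15 without UMBO replicate 2, beside 1.18 and 0.50 for the 10 genes above.

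**Figure D4:**
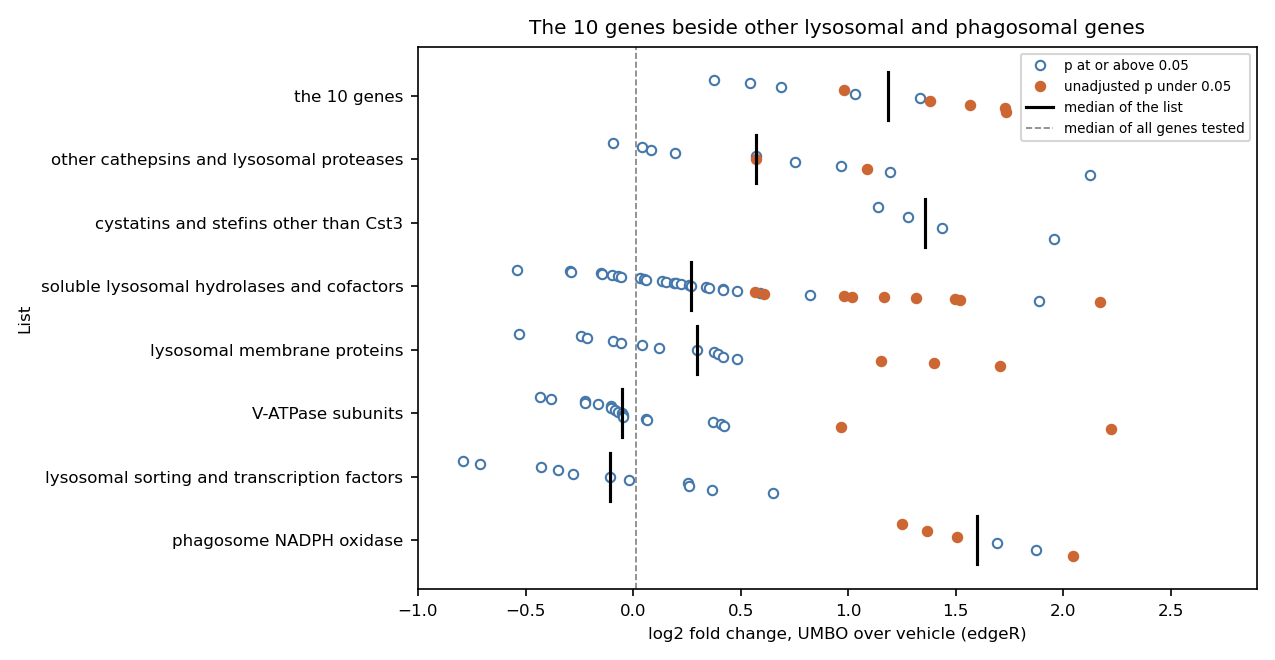
The log2 fold change, UMBO over vehicle, of each gene (points) of the 10 genes and of 7 other lysosomal and phagosomal lists, with filled points for an unadjusted p under 0.05 by edgeR, a black line at each list's median and a dashed line at the median of all genes tested, 0.01. The medians run from -0.11 for sorting and transcription factors to 1.60 for the phagosome NADPH oxidase.

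Among the other lysosomal proteases 11 of 12 genes were tested, their median log2 fold change was 0.57, or 0.21 without UMBO replicate 2, and 2 had an unadjusted p under 0.05. Lgmn, legumain, the protease that processes cathepsins to their mature forms, was at 125, 229 and 137 CPM with vehicle and at 209.8 and 487 CPM with UMBO (log2 fold change 1.09, SE 0.438, edgeR unadjusted p = 0.0478). UMBO replicate 1 again lay below vehicle replicate 2, and the log2 fold change of Lgmn was 0.36 without UMBO replicate 2. Ctsa, the carboxypeptidase that shields lysosomal sialidase and galactosidase, had a log2 fold change of 0.57 (SE 0.252) and Pgpep1, a peptidase that removes pyroglutamate, also 0.57 (SE 0.231). Of the 7 other cystatins and stefins 4 could be tested and none reached an unadjusted p under 0.05. Cst7, cystatin F, which inhibits Ctsc and other cathepsins inside immune cells, was at 2.14, 12.6 and 2.72 CPM with vehicle and at 9.97 and 35.2 CPM with UMBO. Cstb, a cytosolic inhibitor of cathepsins, was at 14.7, 25.7 and 14.4 CPM with vehicle and at 18.3 and 80.5 CPM with UMBO. For both inhibitors the groups overlapped and UMBO replicate 2 was far above the rest. Cst6 had a log2 fold change of 1.14 (SE 0.659) that was -0.27 without that library.

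The 35 soluble hydrolases and their cofactors had a median log2 fold change of 0.27 (0.15 without UMBO replicate 2), with 9 at an unadjusted p under 0.05, all higher with UMBO, 13 whose UMBO libraries both lay above every vehicle library (11.5% of all genes) and 3 with both below (11.4% of all genes). Gusb, beta-glucuronidase, was at 15.3, 29.9 and 20.8 CPM with vehicle and at 35.2 and 74.1 CPM with UMBO (log2 fold change 1.31, SE 0.401, edgeR unadjusted p = 0.0170). Fuca1, a fucosidase, had a log2 fold change of 0.61 (SE 0.219), also without overlap of the groups. Without UMBO replicate 2 these values were 0.68 for Gusb and 0.32 for Fuca1. Of the 15 lysosomal membrane proteins 3 had an unadjusted p under 0.05. These were Laptm5, of hematopoietic cells (1.15, SE 0.396), Cd63, a tetraspanin (1.71, SE 0.651), and Slc11a1, the metal transporter of phagosomes (1.40, SE 0.549), all values log2 fold changes. Without UMBO replicate 2 these were 0.65, 0.36 and 0.51.

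The V-ATPase is the proton pump that acidifies the lysosome. Its 19 subunit genes had a median log2 fold change of -0.05, and of 0.06 when counts were scaled by library size alone, so its sign depends on the scaling. It was 0.11 without UMBO replicate 2. The subunits with an unadjusted p under 0.05 were 2, Atp6v0d2, of macrophages and osteoclasts (2.22, SE 0.811), which stayed under 1 CPM in every library, and Atp6v0e (0.97, SE 0.369). Atp6v1f had a log2 fold change of 0.42 (SE 0.247). None of the 11 sorting receptors and transcription factors reached an unadjusted p under 0.05 and their median log2 fold change was -0.11, which was 0.00 with library size alone and 0.03 without UMBO replicate 2. Tfeb had 0.65 (SE 0.270), Zkscan3, a repressor of autophagy genes, -0.35 (SE 0.207) and Sort1, sortilin, -0.79 (SE 0.480). All 6 subunit genes of the phagosome NADPH oxidase, which makes superoxide inside phagosomes, had values above 0 (median log2 fold change 1.60), and 4 had an unadjusted p under 0.05, including Ncf1 (1.25, SE 0.408) and Cyba (2.05, SE 0.793). Without UMBO replicate 2 their median was 0.48 and the value of Cyba 0.50.

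The 10 genes were then set beside markers of the cell types that a hemisphere holds. The 11 pan-myeloid markers were all detected in every library. The summed level of these markers was 309 to 826 CPM with vehicle and 843 to 1866 CPM with UMBO. An unadjusted p under 0.05 was reached by 8 of 11, where 5.3% of all genes were higher at this threshold. Vehicle replicate 2 was the highest vehicle library for 11 of 11, and UMBO replicate 2 was the highest of all for 10 of 11. Over all 23592 genes tested these 2 counts were 9266 and 9529. As medians of log2 CPM relative to the vehicle mean, the 10 genes were at -0.44, 0.60 and -0.14 in vehicle replicates 1 to 3 and at 0.61 and 1.84 in UMBO replicates 1 and 2. The pan-myeloid markers were at -0.71, 0.95, -0.22, 0.89 and 2.31 in the same libraries. Among them Csf1r, the receptor that keeps microglia and macrophages alive, had a log2 fold change of 0.57 (SE 0.217) and Aif1, which encodes Iba1, of 1.68 (SE 0.691), or 0.48 without UMBO replicate 2. The 8 markers became 1 with UMBO replicate 2 left out (1.15% of all genes higher). They became 2 with vehicle replicate 1 (0.838%) or vehicle replicate 3 (0.945%) left out. The part of myeloid cell number in the levels of the 10 genes was not tested.

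The markers of single myeloid types differed in how the libraries were ordered. The 8 microglia markers summed to 152 to 195 CPM with vehicle and to 284 to 297 CPM with UMBO, 4 had an unadjusted p under 0.05, and UMBO replicate 2 was not above UMBO replicate 1 in their sum. The 4 became 2 without vehicle replicate 1 or vehicle replicate 3. Tmem119 was at 22.7, 38.9 and 29.4 CPM with vehicle and at 44.6 and 60.1 CPM with UMBO, while P2ry12 was lowest in UMBO replicate 2, at 20.8 CPM. The 9 markers of monocytes and monocyte-derived macrophages summed to 56.3 to 244 CPM with vehicle and to 142 and 791 CPM with UMBO. Vehicle replicate 2 and UMBO replicate 2 were the highest libraries of their groups in that sum. Of the 9, 1 had an unadjusted p under 0.05, against 7 with vehicle replicate 2 left out and 0 with vehicle replicate 1, vehicle replicate 3 or UMBO replicate 2 left out. Beside these counts and those of the microglia markers, 5.3% of all genes were higher at this threshold with all 5 libraries. The share was 9.36% without vehicle replicate 2, and 0.838%, 0.945% and 1.15% without vehicle replicate 1, vehicle replicate 3 and UMBO replicate 2. Ly6c2 was at 0.629, 3.68 and 1.06 CPM with vehicle and at 1.58 and 26.0 CPM with UMBO, and Ccr2 at 1.16, 3.50 and 2.35 with vehicle and at 1.90 and 11.7 with UMBO. No marker of these 3 myeloid lists was at 0 in any library, and their part in the result was not tested.

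**Figure D5:**
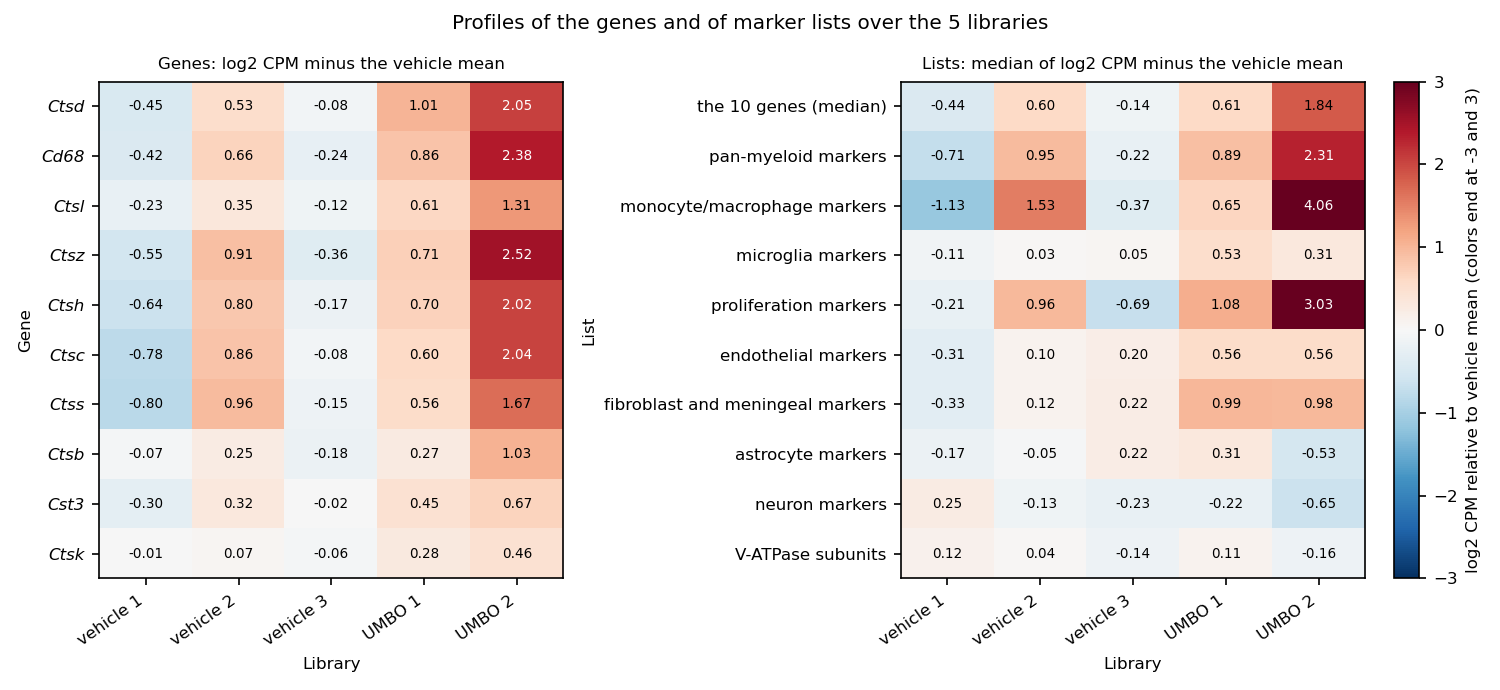
Left, log2 CPM of each of the 10 genes minus its vehicle mean in the 5 libraries; right, the median of the same quantity over the 10 genes and over 9 other lists, printed in each cell and colored from blue (lower) to red (higher). UMBO replicate 2 is the highest column and vehicle replicate 2 the highest vehicle column for the 10 genes (1.84 and 0.60), the pan-myeloid markers (2.31 and 0.95), the monocyte and macrophage markers (4.06 and 1.53) and the proliferation markers (3.03 and 0.96). UMBO replicate 1 is close to vehicle replicate 2 for the 10 genes (0.61), and for the microglia markers it is the highest column (0.53).

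The 10 genes were also measured against the pan-myeloid markers of the same library. The log2 CPM of each gene minus the median log2 CPM of the 11 markers differed between the groups by -1.25 for Ctsk to 0.00 for Cd68, with a median of -0.40, and 9 of 10 were below 0. The median of the markers was itself 3.06, 4.85 and 3.85 with vehicle and 4.46 and 6.62 with UMBO. Any gene that rose by less than this median falls below 0 on this scale. For none of the 10 were the groups without overlap. Ctsd differed by -0.09, Ctsb by -0.97 and Cst3 by -1.06 on this scale. Against the median of the 8 microglia markers 8 of 10 were above 0, up to 1.04 for Cd68, and Cst3 (-0.02) and Ctsk (-0.21) were below. Neither scale was computed for all genes, so the counts above and below 0 have no background beside them. A change per cell was not tested.

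Markers of other cell types were summed in the same way. The 8 proliferation markers, which tumor cells and dividing immune cells share, summed to 27.1 to 90.1 CPM with vehicle and to 93.1 and 400.0 CPM with UMBO, and 8 of 8 had an unadjusted p under 0.05, or 1 of 8 without vehicle replicate 1, vehicle replicate 3 or UMBO replicate 2. Over all genes tested 5.3% were higher at this threshold, and 0.838%, 0.945% and 1.15% with those libraries left out. The 6 fibroblast and meningeal markers summed to 129.9 to 171 CPM with vehicle and to 255 and 266 CPM with UMBO, and 4 of 6 had an unadjusted p under 0.05, or 2 without vehicle replicate 1. The 6 endothelial markers summed to 118 to 166 CPM and to 205 and 221 CPM, with 3 of 6, or 1 without vehicle replicate 1 or UMBO replicate 2. The sum of the 7 neuron markers was lowest in UMBO replicate 2, at 2571 CPM. It was 4892 to 7628 CPM with vehicle and 5182 CPM in UMBO replicate 1. UMBO replicate 2 was the lowest library for 6 of these 7 markers, and for 9398 of all 23592 genes tested. The 7 astrocyte markers summed to 4001 to 5284 CPM with vehicle and to 5926 and 3713 CPM in UMBO replicates 1 and 2. They were not alike, with log2 fold changes from -0.60 to 2.03, 4 higher and 3 lower, and 2 of 7 were highest in UMBO replicate 2. None of the markers of these 5 lists was at 0 in any library, and their part in the levels of the 10 genes was not tested.

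The tested genes outside the set whose profile was most like the median of the 10 genes were sought over the 5 libraries, as the root-mean-square difference of centered log2 CPM. They were Gm10709 (0.0578), Dap (0.0646) and D730044K07Rik (0.0656). Dap, a cytosolic protein gene linked to autophagy and cell death, was at 5.63, 11.8 and 7.37 CPM with vehicle and at 11.6 and 27.5 CPM with UMBO. In it too vehicle replicate 2 and UMBO replicate 1 were close and UMBO replicate 2 was the highest. Gm10709 and D730044K07Rik were rare transcripts, at no more than 0.443 and 1.74 CPM in any library.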

How the data were processed

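Bulk RNA-seq of the right hemisphere of 3 vehicle and 2 UMBO mice was analyzed. The study's methods describe 3 mice per group, and no other UMBO library was analyzed here. The authors mapped reads with STAR 2.7.2a to GRCm38, as their processing notes say, and deposited, for each library, the raw count of reads on every gene, not normalized. The annotation and the strand setting of the counting are not given in the sources used here. Ensembl identifiers were matched to symbols and positions of GENCODE M21 (55480 of 55573 genes).

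The counts, 59736771 to 86164159 per library, were scaled by TMM, filtered with filterByExpr and compared in edgeR 4.0.16 under R 4.3.3 by its quasi-likelihood test, adjusted by Benjamini-Hochberg over the 23592 genes tested, with a threshold of 0.05. The common dispersion was 0.118. For the 10 genes, at 251 reads or more, the number of mice and the spread between them, not counting error, limit the precision. Log2 CPM used a prior count of 2. CPM per kb used the length of the principal GENCODE transcript. Nothing in the labels says more of the replicates than their numbers, so p-values measure the spread between these libraries.

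The 10 genes, the lists and the markers were chosen with earlier results of these data known, so no p was adjusted over a list alone and no list was tested as a set. Named were all 10 genes, the 3 genes of each pathway list with the smallest p, the first 2 of each marker list and the 3 genes nearest in profile, except a few that are not reported here. The neutrophil, T and NK cell, oligodendrocyte and choroid plexus lists had median log2 fold changes of 1.46, 1.14, -0.04 and -0.49, which were 0.12, -0.87, 0.06 and -0.09 without UMBO replicate 2. With library size alone that of the oligodendrocyte list was 0.08. The scripts were tested on simulated data. The alternatives were DESeq2 size factors, library size alone, no filter, the Wald test of DESeq2 1.42.0, the replicate number as a block and each library left out. Whether the groups overlap under the first 2 was added after the data were seen.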

Additional observations from a re-analysis of the deposited data

How the results depend on the processing

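The 10 genes kept a log2 fold change above 0 under every alternative listed above, and 86 of their 100 alternative values stayed on the same side of the adjusted threshold. The other 14 passed it, 7 with the replicate block and 7 without UMBO replicate 1, where a single UMBO library remains. The samples share only a replicate number. With it as a block edgeR called 7 of the 10 genes and 2337 of all genes after adjustment (6.05% of all genes higher), and 6134 genes without adjustment. Vehicle replicate 3 has no UMBO library of the same number. The fold changes of the block fit therefore rest on replicates 1 and 2 of each group. Samples with the same number deviated together from their group means (correlations 0.45 and 0.76). With only 2 UMBO libraries their deviations are equal and opposite, so both correlations rest on the same UMBO difference. They do not show that the numbers pair the mice. After adjustment the count over all genes was 37 with the DESeq2 Wald test and 0 to 4543 with single libraries left out. Without adjustment it was 1738, and 4100 with no filter, 2639 with DESeq2 and 296 to 10165 with single libraries left out. For the 10 genes the counts with single libraries left out were 0 to 7 after and 1 to 8 before adjustment, and the median log2 fold change was 0.50 to 1.80. The count of the 10 genes without overlap was 6 under both other scalings. The share of all genes was not computed under these scalings, so this count has no background beside it. Scaling by library size alone shifted the median over all genes from 0.01 to 0.13 on the log2 scale.

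No gene of the set changed direction. Among the other named genes, the log2 fold changes that changed sign when 1 library was left out ran from -0.23 to 0.18 for Aldoc, -0.66 to 0.83 for Aqp4, -0.30 to 2.29 for Ccr2, -0.91 to 2.33 for Cd3d, -0.87 to 1.65 for Cd3e, -0.27 to 1.81 for Cst6, -0.18 to 4.07 for Ly6c2, -0.20 to 0.086 for Mbp, -0.88 to 0.47 for P2ry12, -0.40 to 2.702 for S100a9 and -0.71 to 0.072 for Ttr. Most of these changes of sign came without UMBO replicate 2. With library size alone the values of P2ry12 and Mbp were 0.044 and 0.071. That of Aldoc was -0.0027 with DESeq2 size factors and with the Wald test, and -0.018 with no filter. The cause was not tested.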
